A study of Danio rerio with 18 samples.

Results

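Long noncoding transcripts are RNAs that the annotation lists without a protein product. Here they are the transcripts of biotype lincRNA, lncRNA, antisense, sense_intronic, sense_overlapping or processed_transcript that had at least 10 reads in 3 or more libraries. The rule kept 1382 of the 6620 transcripts of these biotypes, in a table of 59876 transcripts, and 1906 of the 6620 had no read in any library. They were measured in AB wild type zebrafish larvae, whole body, at 120 hours post fertilisation, in 18 libraries of 6 groups with 3 libraries each. One group was unexposed (control), and in the others the larvae were kept with 7, 70, 700, 3500 or 7000 µM of perfluorobutanesulfonic acid (PFBS), a perfluorinated surfactant with a short carbon chain. The study asked whether it harms the developing nervous system by routes like those of its longer relative perfluorooctanesulfonic acid. How many larvae made up a sample, in which vehicle and from which age they were exposed is not given in the sources used here. No label calls the samples of a group separate animals or pools, so the p-values cover the spread between samples only, and that spread may be technical.

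Long noncoding RNAs act as RNA. Some hold proteins together in the nucleus, some bind microRNAs, and for others it is transcription across the locus, rather than the RNA, that affects a neighbouring gene. Intergenic ones (lincRNAs) lie apart from protein-coding genes, antisense ones are read from the strand opposite to a gene, and processed transcripts are spliced RNAs without an open reading frame, many of them alternative products of a protein-coding gene. They are often expressed in few cell types, and many that were found in zebrafish are expressed in the nervous system.

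By biotype the 1382 transcripts were 792 processed transcripts, 460 lincRNAs, 110 antisense, 17 sense_intronic and 3 sense_overlapping transcripts, and no transcript of the table had the biotype lncRNA. They belonged to 1179 genes, of which 165 had 2 or more of them. A protein-coding gene was the parent of 544, which are noncoding products of genes that also code. Of the 838 others, 629 lay apart from protein-coding transcripts, 140 overlapped one on the opposite strand and 69 on the same strand. The names of 809 of these 838 came from a genomic clone or a similar identifier, and 29 had another name. The label does not hold for every one of the 29: rps20-201 carries the name of a ribosomal protein and was annotated as a processed transcript. Identical counts in all 18 libraries were found in 3 sets that held 6 transcripts, both transcripts of gas5 among them, so these are not separate measurements.

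Read support was low. Mean levels, as CPM (counts scaled to library size but not to transcript length), had a median of 1.22 and quartiles of 0.553 and 3.56. For 608 of the 1382 transcripts (44%) the mean was under 1 CPM, and for 14 it was over 100 CPM. The length that the authors' RPKM values imply had a median of 620 bases (quartiles 460 and 1153, n = 1331). The 81 transcripts just inside the rule, whose third-highest count was 10, had mean levels of 0.13 to 0.473 CPM, and the 66 just outside it, with a third-highest count of 9, had 0.139 to 0.401 CPM. The expression filter of the test passed 1335 transcripts. The 47 others had mean levels of 0.13 to 0.422 CPM and were not tested, 18 of them from protein-coding genes.

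Library totals ran from 14937147 to 19267232 reads. Summed counts of 25 skeletal muscle genes took 13.0 ± 0.417% of the reads in controls (SD, n = 3) and 6.27 ± 2.8% at 7000 µM, where replicate 3 had 3.03% and the others 7.96% and 7.81%. Counts of 19 notochord and epidermis genes took 1.62 ± 0.176% in controls, 0.841 ± 0.293% at 700 µM and 0.659 ± 0.322% at 7000 µM. At 7, 70 and 3500 µM the means were 1.46%, 0.995% and 1.24%. Photoreceptor genes (13) took 1.17 ± 0.0485% in controls and 2.03 ± 0.45% at 7000 µM, with means of 1.29%, 1.54%, 1.81% and 1.34% at 7, 70, 700 and 3500 µM. Neuronal genes (12) took 0.295 ± 0.0181% in controls and 0.345 ± 0.0285% at 7000 µM. Liver genes took 0.0903 ± 0.0291% in controls and 0.0563 ± 0.00814% at 7000 µM, and genes of the exocrine pancreas 0.0154 ± 0.00764% and 0.024 ± 0.00756%. No gene found of these lists was without reads in the whole series. In whole larvae, fewer cells of a type and less RNA per cell cannot be told apart. Replicate 3 at 7000 µM stood apart. The number of calls and many of the named calls are given below with and without it. Counts by biotype, by read level, by parent gene and by partner on the opposite strand are given only with it. The same holds for changes of whole genes.

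The number of long noncoding transcripts called rose with concentration, as did the share of all transcripts called. From 700 µM on most calls of long noncoding transcripts were increases. A call is an adjusted p under 0.05 in edgeR's quasi-likelihood test over all 31721 transcripts tested, and the 5 comparisons share the 3 control libraries. At 7 µM no long noncoding transcript was called, against 0.0% of all transcripts, and 59 (4.42%) had an unadjusted p under 0.05, against 4.24% of all. DESeq2 called 2 there. At 70 µM 1 was called, against 0.0567% of all transcripts, and at 700 µM 2, against 0.233%. At 3500 µM 38 of 1335 were called (2.85%, against 3.28% of all), of which 34 were higher (2.55% against 1.83%) and 4 lower (0.3% against 1.45%). At 7000 µM 163 were called (12.2% against 14.2%), 123 higher (9.21% against 7.69%) and 40 lower (3.0% against 6.53%). The count at 3500 µM rested on single libraries, with 5 called without control replicate 1 or 2, 12 and 8 without replicate 1 or 3 at 3500 µM and 89 without replicate 2 there. At 7000 µM 62 were called without control replicate 1, 88 without control replicate 2 and 58 without replicate 3. The share of all transcripts called was not computed with a library left out, so these losses cannot be read as particular to the long noncoding transcripts. The trend over the order of the 6 groups was called for 262 (19.6% against 25.4%), 191 upward (14.3% against 12.7%) and 71 downward (5.32% against 12.7%).

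**Figure D1:**
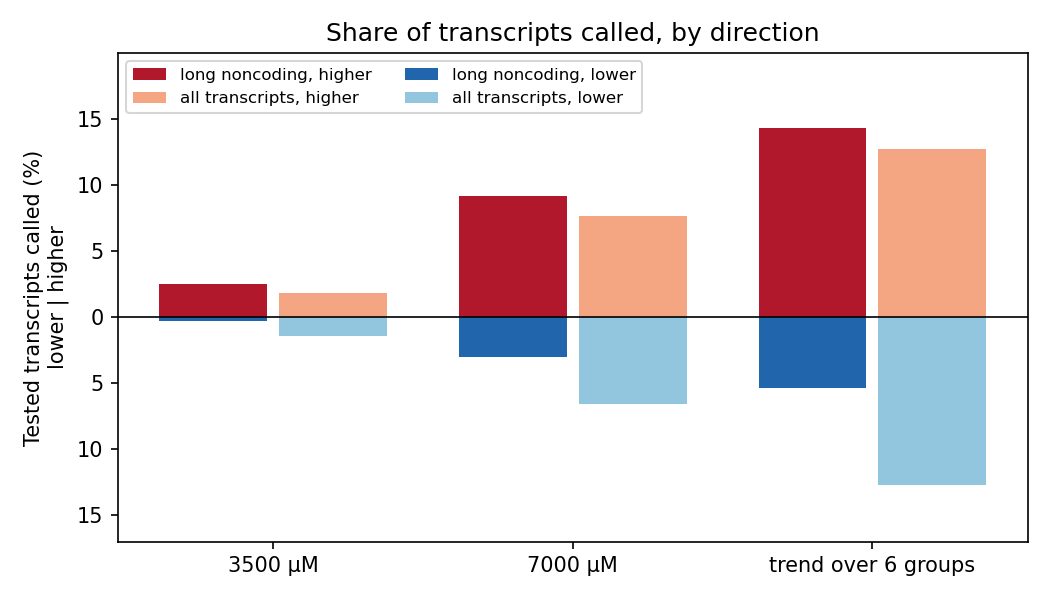
Percentage of tested transcripts called in edgeR's test (y axis) at 3500 µM, at 7000 µM and in the trend over the 6 groups, upward bars for higher and downward bars for lower, dark for the 1335 long noncoding transcripts and pale for all 31721. At 7000 µM 9.21% of the long noncoding transcripts were higher and 3.0% lower, against 7.69% and 6.53% of all transcripts.

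The median log2 change of the 1335 tested transcripts was 0.11 at 3500 µM and 0.14 at 7000 µM, against -0.02 and -0.04 over all transcripts. Changes of at least 2-fold made up 16 of the 38 calls at 3500 µM, 15 of them increases, and 70 of the 163 calls at 7000 µM, 39 increases and 31 decreases. The share of 2-fold changes among all called transcripts was not computed, so these counts cannot be read as particular to the long noncoding ones. The 123 transcripts called higher at 7000 µM had a median log2 change of 0.85 there, with medians of 0.03, 0.19, 0.39 and 0.57 at 7, 70, 700 and 3500 µM. The 40 called lower had a median of -1.38 at 7000 µM, with -0.09, -0.49, -0.49 and -0.51 at the lower concentrations. Both lists were chosen on the 7000 µM comparison, and all comparisons share the controls, so the medians at the lower concentrations are a description only. Without replicate 3 of the 7000 µM group 58 transcripts were called there, 41 higher and 17 lower, of which 55 were among the 163, and all 163 kept their sign.

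By biotype, at 7000 µM 56 of 442 tested lincRNAs were higher and 17 lower, 12 of 103 antisense transcripts were called, all of them higher, and 54 of 770 processed transcripts were higher and 23 lower. Of 17 sense_intronic transcripts 1 was higher (5.88%), and the 3 sense_overlapping transcripts were not called. Among 29016 protein-coding transcripts 2220 were higher and 1993 lower (14.5%). Transcripts of the biotype retained_intron, which the rule leaves out, also leaned upward. Of 1029 tested, 69 were higher and 24 lower at 7000 µM (9.04%, median log2 change 0.17). At 3500 µM 17 of them were higher and 10 lower (median 0.11). The excess of increases was thus not particular to the long noncoding transcripts. Calls were more frequent where more reads were counted: 12 of 561 long noncoding transcripts with a mean under 1 CPM were called (2.14%, against 2.39% of all transcripts at that level), 45 of 249 between 2 and 5 CPM (18.1% against 11%) and 40 of 90 at 20 CPM or more (44.4% against 28.6%).

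The transcript with the smallest adjusted p among the named ones at 700, 3500 and 7000 µM was the lincRNA si:ch211-147k10.6 (transcript CR376745.1-201). It lies on chromosome 25, from 30171955 to 30194067 on the plus strand in the coordinates of the deposited table. The next gene downstream on the same strand is hsd17b12a, 1972 bases away, whose human relative HSD17B12 encodes the 3-ketoacyl-CoA reductase of fatty acid elongation. Its levels were 11.3, 10.1 and 13 CPM in controls, 19.1, 15.1 and 17.7 at 7 µM, 19, 23.3 and 18.4 at 70 µM, 20.9, 25.9 and 21.5 at 700 µM, 25.5, 32.0 and 34.3 at 3500 µM, then 52.7, 52.1 and 69.0 at 7000 µM. Every exposed library, from 7 µM upward, was above the highest control. The log2 change was 0.59 ± 0.16 (SE) at 7 µM and 0.82 ± 0.16 at 70 µM, where it was not called (adjusted p = 0.808 and 0.0925). It rose by a log2 of 0.99 ± 0.16 at 700 µM (adjusted p = 0.0239), 1.42 ± 0.16 at 3500 µM (adjusted p = 0.000656) and 2.34 ± 0.16 at 7000 µM (adjusted p = 3.31e-06), which is 5.05-fold. Without replicate 3 the rise at 7000 µM was 2.2 (adjusted p = 1.66e-05). The call at 700 µM was lost without any one of 5 of the 6 libraries compared and stayed without control replicate 3. The gene hsd17b12a, its counts summed over transcripts, had 17.7, 18.8 and 19 CPM in controls and 38.1, 32.6 and 42.5 CPM at 7000 µM, and rose by 0.76 ± 0.11 at 3500 µM (adjusted p = 0.000681) and 1.03 ± 0.11 at 7000 µM (adjusted p = 2.53e-05).

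A second lincRNA, si:ch211-221f7.2 (CR376774.1-201; chromosome 7, from 50277537 to 50288820, minus strand), has the same placement beside the paralog hsd17b12b, 4625 bases upstream of it on the same strand. Its levels were 0.162, 0.133 and 0.178 CPM in controls, 0.782, 0.523 and 0.51 at 7 µM, 0.889, 0.549 and 0.74 at 70 µM, 0.802, 0.728 and 0.934 at 700 µM, 0.869, 1.17 and 0.954 at 3500 µM, then 1.81, 1.03 and 1.65 at 7000 µM. All 15 exposed libraries were above the controls here as well, at counts so low that each control held few reads. The transcript met the rule of at least 10 reads in 3 libraries only through exposed libraries. Its separation from the controls was thus partly fixed by that rule. The lincRNA rose by a log2 of 2.32 ± 0.38 at 700 µM (adjusted p = 0.0305), 2.6 ± 0.38 at 3500 µM (adjusted p = 0.00299) and 3.18 ± 0.38 at 7000 µM (adjusted p = 0.000363), while at 7 and 70 µM the changes of 1.89 and 2.15 were not called. The gene hsd17b12b changed by 0.37 ± 0.11 at 7000 µM (adjusted p = 0.0256) and by 0.25 at 3500 µM, which was not called. The place of the lincRNAs beside these genes was seen after their values; whether reads of the lincRNAs belong to longer transcripts of the genes was not tested.

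**Figure D2:**
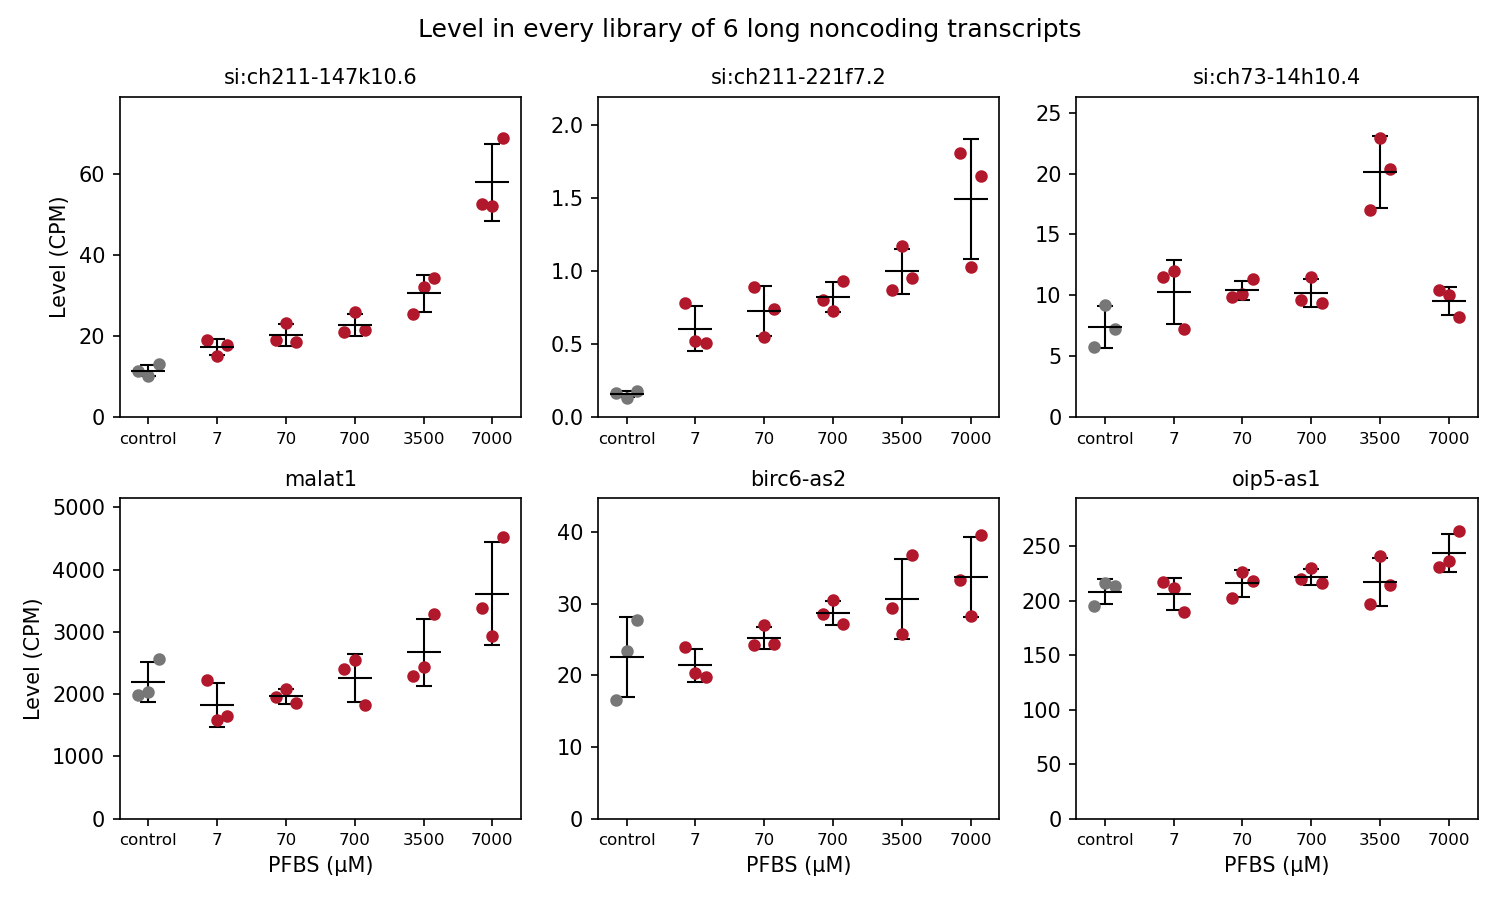
Level in CPM (y axis, from 0) of 6 long noncoding transcripts in every library by PFBS concentration (x axis), grey for controls and red for exposed larvae, with mean and SD of 3 libraries as black bars. For si:ch211-147k10.6 all exposed libraries lie above the highest control of 13.0 CPM, and for si:ch73-14h10.4 the 3500 µM libraries alone lie at 17.0 CPM or more.

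At 70 µM the called transcript was si:ch211-270n8.4 (AL954359.2-201; chromosome 13, from 20220541 to 20222134), a processed transcript on the strand opposite to atrnl1a, a gene of the attractin-like family. It had 2.97, 2.74 and 2.37 CPM in controls and 1.36, 0.713 and 1.02 CPM at 70 µM, without overlap, and it fell by 1.38 ± 0.23 on the log2 scale (adjusted p = 0.0447). At 7000 µM it fell by 1.02 (adjusted p = 0.0102), and at 700 and 3500 µM the changes of -0.8 and -0.43 were not called. The call at 70 µM was lost without any one of the 6 libraries compared, with adjusted p up to 0.226. The gene atrnl1a had a log2 change of 0.28 at 70 µM (adjusted p = 0.552).

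At 3500 µM, 14 transcripts met the naming rule in the ranks it allows, 10 that rose and 4 that fell. The lincRNA si:ch73-14h10.4 (FP101882.1-201; chromosome 6, from 28222989 to 28224964) starts 397 bases from the start of bcl6aa, which encodes a transcriptional repressor of the BCL6 family and is read in the other direction. It had 5.72, 9.21 and 7.24 CPM in controls, 17.0, 22.9 and 20.4 CPM at 3500 µM and 10.4, 10 and 8.23 CPM at 7000 µM. It rose by 1.45 ± 0.2 at 3500 µM (2.72-fold, adjusted p = 0.00233), a call that stayed without any single library compared, and it was not called at 7000 µM (0.37, adjusted p = 0.225). The 7000 µM libraries lay below all 3 libraries at 3500 µM; this difference was not tested. The gene bcl6aa had log2 changes of -0.14 and -0.09 at the 2 concentrations, neither of them called.

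Other lincRNAs rose at both high concentrations. The lincRNA si:ch211-139k8.2 (CR391940.1-202), 1336 bases past the end of mycb, a gene of the Myc transcription factors, on the same strand, had 0.701, 0.801 and 1.07 CPM in controls and 2.17, 2.41 and 2.09 CPM at 3500 µM. It rose by 1.37 ± 0.26 at 3500 µM (adjusted p = 0.0131) and 1.18 ± 0.26 at 7000 µM (adjusted p = 0.00951). The 3500 µM call was lost without control replicate 1 or 2 (adjusted p up to 0.0728). The 7000 µM call was lost without control replicate 1 (adjusted p = 0.0525). In the same comparisons mycb had log2 changes of 0.42 (adjusted p = 0.0256) and -0.22 (adjusted p = 0.149). The lincRNA si:ch211-152p11.8 (FP101887.1-204) rose by 1.1 and 0.87, and si:ch211-160d14.9 (AL928650.3-201) by 1.23 and 0.97. Both of their 7000 µM calls were lost without replicate 3, at adjusted p = 0.0756 and 0.123. For si:ch211-152p11.8 that call was also lost without control replicate 1 or 2. For si:ch211-160d14.9 it was also lost without control replicate 1 or 3, or without replicate 1 at 7000 µM. Their calls at 3500 µM were lost without any one of 3 and 4 of the 6 libraries compared, in the same order.

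Noncoding products of protein-coding genes made up the other rises named at 3500 µM, apart from 1 lincRNA and vcp-208, which are described with the 7000 µM comparison. The transcript cry3b-203, from a gene of the cryptochromes that take part in the circadian clock, rose by 1.07 ± 0.24 at 3500 µM (adjusted p = 0.0298) and 1.12 ± 0.24 at 7000 µM (adjusted p = 0.00924), while the whole gene rose by 0.83 and 0.77. The transcript zfand5b-202, from a zinc finger gene, had 0.809, 0.867 and 0.653 CPM in controls and 1.49, 2.86 and 1.79 CPM at 3500 µM (1.39 ± 0.35, adjusted p = 0.0454), and 0.643, 0.303 and 0.511 CPM at 7000 µM, where it was not called. The whole gene rose by 0.62 at 3500 µM (adjusted p = 0.000139) and 0.54 at 7000 µM (adjusted p = 0.000211). In controls the transcript held 1.11% of the gene's reads. Its call at 3500 µM was lost without any one of the 6 libraries compared. The transcript rps8a-204 of a ribosomal protein gene rose by 1.49 ± 0.39 (adjusted p = 0.0496).

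Of the 4 falls at 3500 µM, mllt10-210 had the largest change. It comes from a gene of a chromatin cofactor, and had 3.29, 2.67 and 3.09 CPM in controls, 0.0, 0.13 and 0.0 CPM at 3500 µM and 2.04, 4.54 and 3.69 CPM at 7000 µM. It also had 0.0 CPM in the first library at 700 µM and 0.279 CPM in the first at 7 µM, so low values in a single library occurred in both of these groups. The gene mllt10 as a whole changed by -0.1, which was not called, and the transcript held 2.09% of its reads in controls and 0.031% at 3500 µM. The transcript nsfa-202, from a gene of the membrane fusion ATPase NSF, fell from 13.3 ± 0.588 to 8.66 ± 1.28 CPM (-0.62 ± 0.16, adjusted p = 0.048) with no call for the gene (0.03). The lincRNA si:dkey-241f8.1 (BX005003.1-203) fell by 0.5 and evi5b-204 by 0.38. Of the 14 calls named here, 2, 3 and 5 stayed without control replicate 1, 2 or 3, and 6, 13 and 4 without replicate 1, 2 or 3 at 3500 µM.

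At 7000 µM, 2 of the 10 largest named rises were lincRNAs that lie beside each other on an unplaced scaffold of the assembly, on the same strand. CABZ01079276.1-201 had 0.378, 0.467 and 0.772 CPM in controls, 2.65, 2.5 and 1.52 at 700 µM, 2.05, 2.8 and 2.56 at 3500 µM, then 2.39, 3.94 and 8.74 at 7000 µM. The exposed libraries from 700 µM on did not overlap the controls, and replicate 3 at 7000 µM was the highest. This transcript met the rule of at least 10 reads in 3 libraries only with libraries at 70 µM and above. Its separation from the controls was thus partly fixed by that rule. CABZ01079276.1-201 rose by 2.18 ± 0.45 at 3500 µM (adjusted p = 0.02) and 3.21 ± 0.46 at 7000 µM (adjusted p = 0.0012), and by 2.55 without replicate 3 (adjusted p = 0.00337). CABZ01079280.1-202 had 1.08, 0.801 and 2.49 CPM in controls and 3.15, 4.66 and 9.08 CPM at 7000 µM, and rose by 1.94 ± 0.43 (adjusted p = 0.0107), a call lost without replicate 3 (1.42, adjusted p = 0.0652). Of the 4 long noncoding transcripts on this scaffold 3 were called higher at 7000 µM, against 7.69% of all transcripts. The scaffold was looked at because it holds the 2 named rises, so 2 of the 3 calls were fixed by that choice. The third was CABZ01079281.1-201 (0.81, adjusted p = 0.0153), which is named here after its value was seen.

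Noncoding products of protein-coding genes made up 5 of the other named rises at 7000 µM. The transcript ctnna2-206 comes from the gene of αN-catenin, which links cadherins to actin in neurons. It had 2.43, 0.934 and 2.08 CPM in controls, 3.79, 4.56 and 6.85 at 3500 µM, then 8.53, 6.42 and 9.47 at 7000 µM, and rose by 2.15 ± 0.4 at 7000 µM (adjusted p = 0.0044). The call stayed without any single library compared. It held 3.33% of the reads of its gene in controls and 14.9% at 7000 µM, while the gene changed by -0.03 (adjusted p = 0.838).

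The transcript vcp-208, from the gene of the ATPase VCP, which extracts proteins for degradation, had 0.0, 0.0 and 0.119 CPM in controls, 0.0 in all libraries at 7 and 70 µM, 2.9, 2.34 and 0.0 at 700 µM, 3.16, 1.56 and 8.64 at 3500 µM, then 7.59, 1.88 and 6.64 at 7000 µM. It rose at 3500 µM (adjusted p = 0.0499) and at 7000 µM (adjusted p = 0.0186), and the gene did not pass the test (0.07 and 0.04). The call at 3500 µM was lost without any one of 5 of the 6 libraries compared, with adjusted p up to 0.177. The call at 7000 µM was lost without control replicate 1 or 2 or without replicate 3 at 7000 µM, with adjusted p up to 0.0813. This transcript met the rule of at least 10 reads in 3 libraries only through libraries at 700 µM and above, so its rise was partly fixed by that rule. The transcript nhp2-203, from the gene of a protein of small nucleolar ribonucleoproteins, had no read in the controls and 1.05, 1.7 and 1.87 CPM at 7000 µM, which is at least 25.8-fold higher against a floor of 3 counts over the control group (adjusted p = 0.0293). It was also present in all libraries at 7 and 70 µM and in 1 library each at 700 and 3500 µM. It met the rule of at least 10 reads in 3 libraries only through the 7000 µM group. Its rise there was thus partly fixed by that rule. Its fitted call was lost without any single control and without replicate 3, with adjusted p up to 0.0954.

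The transcript serpinh1b-205, from the gene of the collagen chaperone HSP47, had 1.08, 0.667 and 0.534 CPM in controls and 4.5, 4.36 and 1.42 CPM at 7000 µM (2.16 ± 0.57, adjusted p = 0.0227), with a gene-level rise of 1.35 (adjusted p = 0.00345). The transcript slc43a2b-202, from an amino acid transporter gene, rose by 1.95 ± 0.58 (adjusted p = 0.0373), and without replicate 3 its adjusted p was 0.159. It met the read count rule only with libraries at 700 µM and above, so its rise was partly fixed by that rule. The transcript BX927130.4-204 of si:dkey-27n6.9 rose by 2.14 ± 0.68 (adjusted p = 0.0499), from 23.9% to 75% of its gene's reads, and it was lost without any single control.

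**Figure D3:**
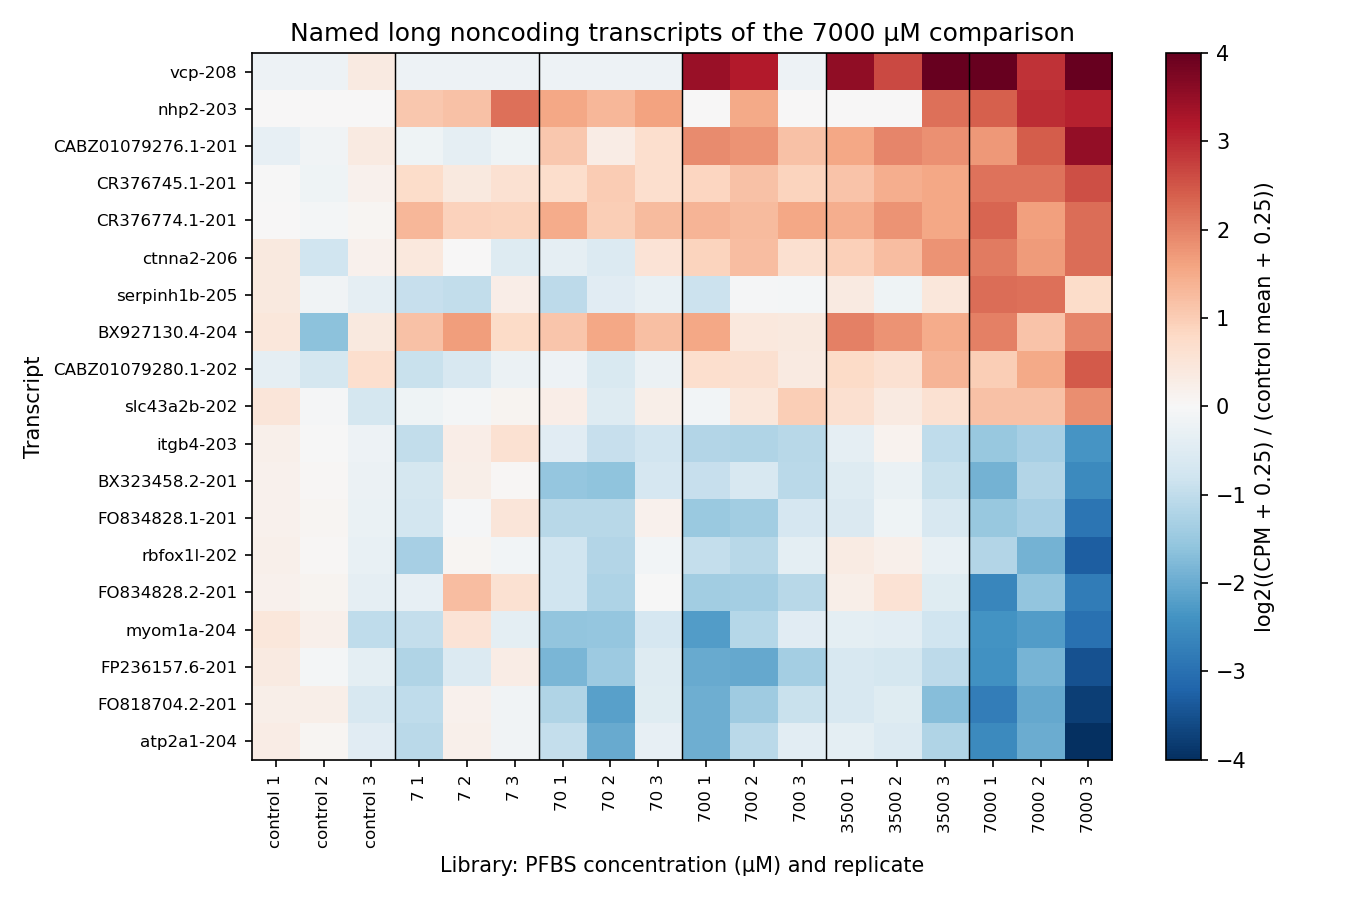
Level of the 19 long noncoding transcripts described at 7000 µM (rows) in each of the 18 libraries (columns), as log2 of CPM + 0.25 over the control mean + 0.25; colours are cut off at -4 and 4. The 10 rising transcripts are at the top and the 9 falling ones at the bottom; atp2a1-204, for one, went from 20 to 33.3 CPM in the controls to 1.19 CPM in replicate 3 at 7000 µM.

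Among the 10 largest named falls at 7000 µM were 4 lincRNAs with clone names, and no gene name is given to them in the tables used. FO818704.2-201 (chromosome 7, from 69868210 to 69881980) had 20.2, 20.5 and 10.9 CPM in controls, 7.41, 3.62 and 12.1 at 70 µM, 4.26, 6.29 and 9.11 at 700 µM, 10.9, 12.3 and 5.07 at 3500 µM, then 2.34, 4.0 and 1.02 at 7000 µM. It fell by 2.81 ± 0.55 on the log2 scale at 7000 µM (adjusted p = 0.00563) and by 2.43 without replicate 3 (adjusted p = 0.0313). FP236157.6-201 on chromosome 1 had 7.5, 5.4 and 4.33 CPM in controls and 0.876, 1.39 and 0.284 CPM at 7000 µM (-2.75 ± 0.53, adjusted p = 0.00551). FO834828.1-201 and FO834828.2-201 lie on chromosome 1 on the same strand with 11758 bases between them. The first had 8.2, 7.74 and 5.99 CPM in controls and 2.39, 2.78 and 0.737 at 7000 µM (-1.89 ± 0.47, adjusted p = 0.0179), and the second 3.08, 2.94 and 2.02 CPM and 0.234, 0.727 and 0.17 (-2.82 ± 0.56, adjusted p = 0.00632). In all 4 the lowest of the 18 libraries was replicate 3 at 7000 µM. The skeletal muscle markers and the notochord and epidermis markers were also lowest in that library (3.03% and 0.291% of reads). Photoreceptor markers were highest there (2.54%). The part of these tissues in the 4 falls was not tested. The coding gene nearest to FO834828.1-201, naa15b, rose by 0.25 (adjusted p = 0.0291).

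The other named falls described here, apart from the processed transcript si:dkeyp-69b9.2, were products of genes with known tissue roles. The transcript atp2a1-204, from the gene of the calcium pump of fast skeletal muscle, had 33.3, 28.6 and 20 CPM in controls and 4.44, 6.72 and 1.19 CPM at 7000 µM (-2.73 ± 0.58, adjusted p = 0.00813). The transcript myom1a-204, from a gene of the myosin-binding M-band protein myomesin, fell by 3.08 ± 0.62 (adjusted p = 0.00636), and rbfox1l-202, from a splicing factor gene of muscle, by 2.0 ± 0.49 (adjusted p = 0.0173). Their genes fell by 1.38, 1.41 and 0.88. The transcript itgb4-203, from the gene of the integrin β4 of epithelial hemidesmosomes, fell by 1.98 ± 0.45 (adjusted p = 0.0124) and its gene by 1.11. The summed skeletal muscle markers were lower in the same libraries (3.03% to 7.96% of reads at 7000 µM against 12.6% to 13.4% in controls, all 25 detected), as were the notochord and epidermis markers (0.291% to 0.885% against 1.45% to 1.8%, all 19 detected), and their part in these falls was not tested. The gene atp2a1 is itself among the 25 skeletal muscle genes, so reads of atp2a1-204 are part of that sum. The processed transcript si:dkeyp-69b9.2 (BX323458.2-201) fell by 2.43 ± 0.59 (adjusted p = 0.0154), and the nearest coding gene, si:dkeyp-69b9.3, fell by 1.83 (adjusted p = 0.0013).

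Of the 20 calls that met the naming rule at 7000 µM, 12, 13 and 15 stayed without control replicate 1, 2 or 3, and 15, 19 and 10 without replicate 1, 2 or 3 at 7000 µM. Those lost without replicate 3 included vcp-208, nhp2-203, BX927130.4-204, slc43a2b-202, CABZ01079280.1-202, si:dkeyp-69b9.2, rbfox1l-202, itgb4-203 and FO834828.1-201, with adjusted p between 0.0548 and 0.159.

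Across all tested noncoding products of protein-coding genes, 526 had a gene-level value at 7000 µM and 55 were called (10.5%, against 14.2% of all transcripts), 39 higher and 16 lower. For 24 of the 55 the gene as a whole was called in the same direction, for 3 in the opposite direction and for 28 it was not called. The parent gene was thus called for 49.1% of the called transcripts, against 32.5% for all 526 and 25% of all 21046 genes tested, and the transcript's own reads are part of its gene's sum. The gene-level log2 change was within 0.5 of 0 for 40 of the 55 (72.7%) and for 439 of the 526 (83.5%). The 3 that moved against their gene were smox-204, calm1a-202 and uck2a-202. The transcript smox-204, from the gene of spermine oxidase, had 1.03, 1.2 and 0.534 CPM in controls and 0.0, 0.121 and 0.0 CPM at 7000 µM, and fell by 4.31 ± 0.76 (adjusted p = 0.00343) while the gene rose by 0.61 (adjusted p = 0.000288). The transcript calm1a-202 of a calmodulin gene fell by 1.18 (adjusted p = 0.0228) against a rise of the gene by 0.39, and uck2a-202 of a uridine-cytidine kinase gene by 1.43 (adjusted p = 0.0192) against 0.37. How reads were divided between transcripts of a gene is not given in the sources used here, so shares within a gene are uncertain.

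**Figure D4:**
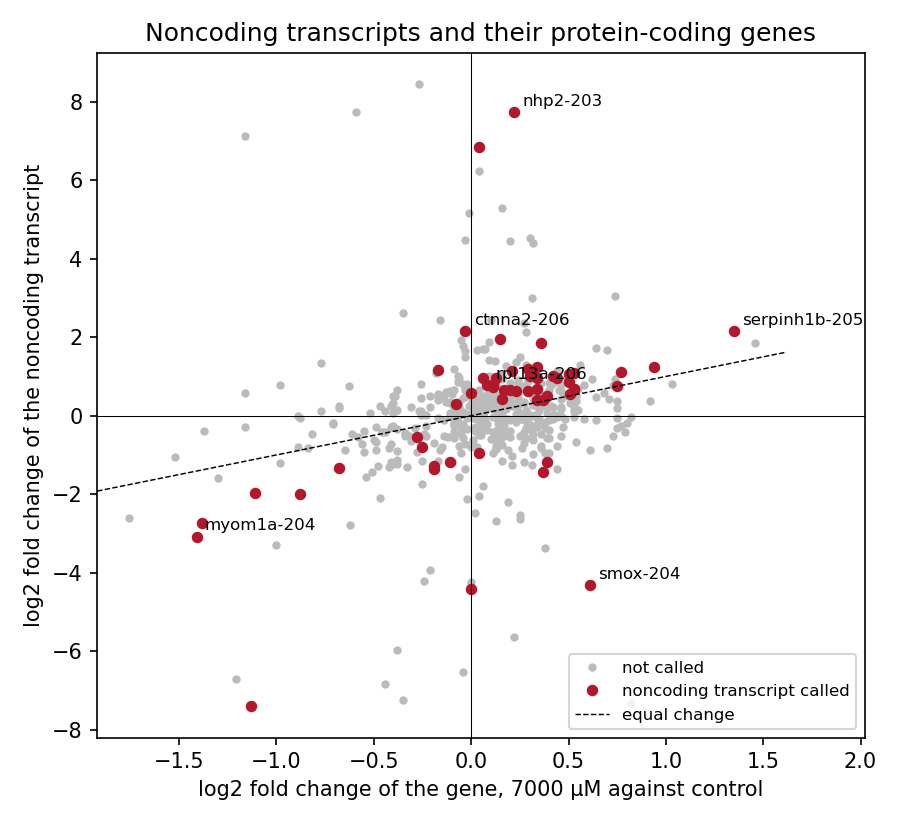
Log2 change at 7000 µM against controls of 526 noncoding transcripts (y axis) and of the protein-coding gene each belongs to, counts summed per gene (x axis), with the 55 called transcripts in red; the axes have different scales and the dashed line marks equal change. For ctnna2-206 and nhp2-203 the gene lies near 0, and smox-204 fell where its gene rose.

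Of the 131 tested transcripts that overlap a coding gene on the opposite strand, 115 had a partner that was tested, and 11 of these were called at 7000 µM (9.57%, against 14.2% of all transcripts). The partner was called in the same direction for 3, in the opposite direction for 1 and not at all for 7, and among all 115 the partner was called for 27 (23.5%). Of 36 transcripts that start within 1000 bases of a coding start on the other strand, 3 were called (8.33%). The partners of these 3 were not called, and among all 36 the partner was called for 8 (22.2%). The antisense RNA si:rp71-36d5.4 (AL590149.1-201) spans pomca, the gene of the precursor of ACTH and melanocyte-stimulating hormone, on chromosome 17 from 33206780 to 33231714. It had 30.8, 34.3 and 34.2 CPM in controls and 51.0, 49.1 and 65.9 CPM at 7000 µM, without overlap, and rose by 0.74 ± 0.15 (adjusted p = 0.00614, and 0.0315 without replicate 3). The gene pomca itself had 0.858, 0.728 and 0.648 CPM in controls and 0.466, 0.606 and 0.28 CPM at 7000 µM, which was not called (-0.73 ± 0.58, adjusted p = 0.365).

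The case in which partners moved apart was si:ch211-210k13.6 (CR352285.1-201), which lies at the end of creld1a on chromosome 11; in mouse Creld1 is needed for development of the heart. It had 12.8, 15.6 and 20.4 CPM in controls and 26.9, 23.9 and 37.9 CPM at 7000 µM, and rose by 0.86 ± 0.22 (adjusted p = 0.0187, and 0.0982 without replicate 3). Over the same libraries creld1a had 1.98, 2.05 and 1.35 CPM in controls and 0.466, 0.424 and 0.112 CPM at 7000 µM, and fell by 2.41 ± 0.42 (adjusted p = 0.00103). A transcript on the strand opposite to pimr11, zgc:162999 (BX511311.3-201), rose by 0.58 ± 0.14 (adjusted p = 0.0153). Whether counting used strand is not given in the sources used here, so reads of a gene and of its antisense partner cannot be told apart with certainty.

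Of the long noncoding RNAs known by name, malat1 and birc6-as2 rose at 7000 µM, and oip5-as1, gas5 and sox2ot did not pass the test. The RNA malat1 (CR383676.2-201; chromosome 14, from 45631236 to 45638712, minus strand), an abundant nuclear RNA that gathers at splicing speckles in mammals, had 1980, 2040 and 2560 CPM in controls, 2230, 1590 and 1650 at 7 µM, 1960, 2080 and 1850 at 70 µM, 2410, 2550 and 1820 at 700 µM, 2290, 2430 and 3290 at 3500 µM, then 3390, 2930 and 4530 at 7000 µM. The 7000 µM libraries lay above all controls. It rose by 0.72 ± 0.19 there (1.65-fold, adjusted p = 0.0238), a call lost without control replicate 1 or 2 or without replicate 3 at 7000 µM (0.54, adjusted p = 0.118 in the last case).

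The RNA birc6-as2, which is antisense to birc6 and comes from the locus of the megamind RNA of the zebrafish brain, had 16.6, 23.4 and 27.7 CPM in controls and 33.3, 28.3 and 39.5 CPM at 7000 µM. It rose by 0.58 ± 0.17 (adjusted p = 0.0367) and without replicate 3 it was not called (0.46, adjusted p = 0.162). Its partner birc6 had a log2 change of 0.06 (adjusted p = 0.702). The conserved RNA oip5-as1, also named cyrano, which directs the decay of the microRNA miR-7 in mouse, had 195, 216 and 214 CPM in controls and 231, 237 and 264 CPM at 7000 µM (0.23 ± 0.09, adjusted p = 0.0871, not called). Its levels were within 190 to 264 CPM in all 18 libraries. Both gas5 transcripts, host of small nucleolar RNAs, share 1 set of counts, with 1.54 ± 0.166 CPM in controls and 2.16 ± 0.371 CPM at 7000 µM (0.49 ± 0.21, adjusted p = 0.139). The transcript FP102167.1-203 of sox2ot lies 2702 bases upstream of the stem cell gene sox2 on the same strand. It had 0.602 ± 0.235 and 0.234 ± 0.101 CPM (-1.34 ± 0.65, adjusted p = 0.18).

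A further 16 transcripts carry a linc or lnc name in the gene table; they were named after their values were seen. Of these, lnc.133 (BX571942.1-202) was called at 7000 µM, with 1.24, 2.6 and 2.2 CPM in controls and 1.05, 0.484 and 0.397 CPM at 7000 µM (-1.63 ± 0.5, adjusted p = 0.0411). Others at higher read support did not pass the test, among them BX927184.1-201 (14.2 ± 0.689 CPM in controls and 16.1 ± 0.37 at 7000 µM, adjusted p = 0.329) and linc.phox2bb (2.74 ± 0.0663 and 2.74 ± 0.632).

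Per length, the transcript with the highest level was the lincRNA si:dkey-153m14.1 (CT027638.1-201; chromosome 20, from 55169000 to 55169889), at a mean of 4240 RPKM over the 18 libraries. It was followed by rps20-201 at 2750, rps8a-203 at 1350, rpl22-201 at 739, eef1b2-204 at 587, rpl13a-206 at 479 and eef1b2-205 at 395 RPKM, all of genes of ribosomal proteins or of a translation elongation factor. Then came si:ch1073-325m22.2-202 at 336, malat1 at 334 and si:dkey-238c7.12 (CR318588.4-201) at 228 RPKM. The level of si:dkey-153m14.1 varied widely within groups: 3840, 2170 and 2040 CPM in controls and 4710, 1680 and 8250 CPM at 7000 µM (0.86 ± 0.43, adjusted p = 0.193). The 2 groups overlapped.

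Of the ribosomal products, rpl22-201 had 105, 127 and 135 CPM in controls, 192, 153 and 219 at 3500 µM, then 196, 166 and 217 at 7000 µM. It rose by 0.62 ± 0.14 (adjusted p = 0.0332) and 0.66 ± 0.14 (adjusted p = 0.00965), and without replicate 3 at 7000 µM the adjusted p was 0.0508. It held 28.1% of its gene's reads in controls and 39.1% at 7000 µM, where the gene was not called (0.2). The transcript rpl13a-206 rose by 0.78 ± 0.23 at 7000 µM (adjusted p = 0.0385, and 0.0796 without replicate 3) and went from 22.7% to 37% of its gene's reads, with no call for the gene (0.08). The other abundant ribosomal and elongation factor products were not called at 7000 µM, with log2 changes from -0.22 to 0.29.

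Together the 1382 transcripts took 1.436%, 1.298% and 1.385% of all reads in the controls and 1.895%, 1.559% and 2.514% at 7000 µM. The means were 1.373 ± 0.07% and 1.989 ± 0.485%, and the groups did not overlap (exact permutation test, two-sided, p = 0.1, the smallest that 3 against 3 libraries allow). The means at 7, 70, 700 and 3500 µM were 1.33%, 1.417%, 1.407% and 1.393%. Much of the difference lay in si:dkey-153m14.1, at 0.266% of reads in controls and 0.498 ± 0.343% at 7000 µM, and malat1, at 0.218% and 0.369%. Without these 2, the share was 0.889 ± 0.038% in controls, 0.883 ± 0.037% at 7 µM, 0.943 ± 0.044% at 70 µM and 0.958 ± 0.043% at 700 µM. It was 0.986 ± 0.053% in the 3500 µM libraries and 1.122 ± 0.057% in the 7000 µM libraries. Exact permutation tests against controls gave p = 0.8, 0.3, 0.2, 0.1 and 0.1 in this order of concentrations. A share of all reads also depends on the reads of other genes, such as those of skeletal muscle, whose part was not tested.

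In the trend over the 6 groups, the largest upward slopes among the named transcripts belonged to noncoding products that had no read in several of the libraries of controls and of the 7 and 70 µM groups. Besides vcp-208 they were rtn1b-204, from a reticulon gene, hmgn2-201, from a nucleosome-binding protein gene, kpnb3-202, from an importin gene, and si:dkey-247k7.2-201. Of these, kpnb3-202 met the read count rule only through the 7000 µM group, so its slope was partly fixed by that rule. The same holds for vcp-208, rtn1b-204 and si:dkey-247k7.2-201, which met it only with libraries at 700 µM and above. The transcript hmgn2-201 had 0.0, 9.67 and 13.0 CPM in controls, 88.7, 103 and 3.45 at 700 µM, 42.5, 49.9 and 196 at 3500 µM, then 124, 75.1 and 271 at 7000 µM, with a slope of 1.25 ± 0.29 log2 per step (adjusted p = 0.00889). At 700 µM replicate 3 was low, and the same library had 0.0 CPM of vcp-208, rtn1b-204, kpnb3-202 and si:dkey-247k7.2-201. For hmgn2-201, rtn1b-204, kpnb3-202 and si:dkey-247k7.2-201 the comparison of 7000 µM with controls was not called (adjusted p from 0.0676 to 0.114). Among the largest downward slopes were those of col1a1a-202, from a gene of type I collagen (-1.27 ± 0.33, adjusted p = 0.0137), os9-203, smox-204 and myom1a-204. The transcript os9-203 had no read in the 3 libraries at 3500 µM and 0.0, 0.908 and 0.0 CPM at 7000 µM, against 0.809, 2.6 and 2.49 CPM in controls.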

How the data were processed

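Total RNA of whole larvae was isolated with RNAzol, per the labels' protocols. The authors deposited 1 table with a line per annotated transcript, its position, strand and biotype, read counts as whole numbers and RPKM values for each sample, per the file headers. Which aligner, counting program and genome build were used, and whether counting used strand, is not given in the sources used here, so coordinates are those of the deposited table. All tests used the counts the authors deposited, and the deposited RPKM values, scaled for length and library by the authors, were used for levels between transcripts and to derive lengths.

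For all transcripts together the counts went into edgeR 4.0.16 (R 4.3.3; filterByExpr, which kept 31721 transcripts; TMM scaling; 1 quasi-likelihood fit of all 18 libraries with a mean per group; F test, two-sided; Benjamini-Hochberg adjustment over the 31721; threshold 0.05). Its common dispersion, 0.096, equals 31% as a coefficient of variation. The trend used equal steps over the order of the groups. Gene-level changes came from the same fit on counts summed per gene. CPM values are counts over library size times TMM factor, errors of levels are SD, and errors of log2 changes are SE. The floor for a group at 0 is 3 counts over the group and covers counting error only. Every pair of replicates differed beyond sampling noise. The script was tested on simulated data. Alternatives were DESeq2 1.42.0, RLE scaling, no filter, 6 libraries only, a replicate block and each library left out. The exact permutation test used scipy 1.17.1, and figures were drawn with matplotlib 3.10.9.

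The transcripts and lists were chosen with earlier results of these data known. Transcripts named for a comparison were called, had all exposed libraries outside the control range and at least 1 CPM in the higher group; the 10 largest rises and 10 largest falls at 3500 and 7000 µM, up to 10 each way at lower concentrations, and the 5 largest slopes each way were taken. The rule added the 10 highest mean RPKM values, known long noncoding RNAs by symbol, and the 5 called transcripts with the highest mean CPM on the strand opposite to a coding gene. Of the 1382 transcripts 1204 matched the gene table by identifier. One transcript that met the rule at 7000 µM and in the trend is not reported here. No sequences of these transcripts were used here.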

Additional observations from a re-analysis of the deposited data

How the results depend on the processing

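No called transcript changed direction under the alternatives that tested it; with only the 6 libraries compared, 6 of the 163 calls at 7000 µM were not tested. The count of long noncoding transcripts called stayed within 1.5 times with RLE scaling (0, 1, 2, 36 and 168 at 7, 70, 700, 3500 and 7000 µM, and 265 in the trend). DESeq2 called 2, 4, 14, 80 and 188, and 255 in the trend. Without the filter on low counts 0, 0, 1, 19 and 128 were called, with more transcripts to adjust over, and with only the 6 libraries compared 0, 0, 1, 6 and 64, with fewer samples to estimate the spread. A replicate block gave 0, 0, 1, 27 and 146, and 247 in the trend. The share of all transcripts called was not computed under these alternatives or with a library left out. Same-numbered libraries did not deviate together (45 pairs, r from -0.099 to 0.088), and neither did differently numbered ones (90 pairs, r from -0.1 to 0.096). The labels do not say what the replicate number stands for. These correlations cannot settle it, since many of the transcripts had few reads. Leave-one-out fits over the 18 libraries gave counts from 0 to 0 at 7 µM, 0 to 1 at 70 µM, 0 to 5 at 700 µM, 5 to 89 at 3500 µM, 58 to 176 at 7000 µM and 183 to 285 in the trend. At 3500 µM 5 were called without control replicate 1 or 2, 21 without control replicate 3, 25 without replicate 1 at 700 µM, and 12, 89 and 8 without replicate 1, 2 or 3 at 3500 µM. At 7000 µM 62 and 88 were called without control replicate 1 or 2, and 58 without replicate 3. At 700 µM 0 were called without control replicate 1 or 2 or any library at 700 µM, 1 without control replicate 3 or without replicate 1 at 7000 µM, and 5 without replicate 3 at 7000 µM. The share of reads at 7000 µM exceeded that of controls by 0.617 percentage points, and by 0.354 to 0.832 with a library left out. At 70 µM the difference ran from 0.004 to 0.078, and at 7, 700 and 3500 µM it took both signs (-0.08 to 0.007, -0.006 to 0.108 and -0.069 to 0.075). RLE scaling could not be applied to that share, which uses raw totals. The cause of these differences was not tested. At a median of 1.22 CPM, small changes of many of these transcripts may have been missed at this depth, and the power to detect them was not computed.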
